A study of Mus musculus with 5 samples.

Results

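Transcripts of 6 genes that control osteoclast formation were followed in whole knee joints of mice lacking both epiphycan and biglycan and in wildtype mice: Tnfsf11, Tnfrsf11b, Tnfrsf11a, Nfatc1, Csf1 and Csf1r. They were taken by gene symbol in the array annotation, which gave 15 of the 22626 probe sets other than array controls, and 6 of the 12393 genes with a probe set. A probe set is a group of short array probes read together as 1 value. No probe set was shared between a member and another gene in that annotation.

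The 5 arrays were from male mice, 3 months old, of a C57/Bl6:129 hybrid background. For each array RNA came from a pool of 6 whole tibio-femoral joints, taken from 3 mice, and the pool is the replicate. The 2 wildtype pools carried no stated mutation, and the 3 double-null pools came from animals null for Epyc (epiphycan) and Bgn (biglycan), with no cell type named for the loss. The sources used here do not give how the null alleles were made or whether the wildtype animals were littermates. The values stood in 2 tables that list identical probe sets: table A held wildtype pool 2 and double-null pool 3, and table B held wildtype pool 1 and double-null pools 1 and 2. The tables were deposited under different array platform records, so any difference between tables also separates these records. Whether they stand for different batches is not stated in the labels.

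RANKL, encoded by Tnfsf11, is a membrane-bound or shed cytokine of osteoblast-lineage cells, osteocytes, hypertrophic chondrocytes and activated T cells that binds the receptor RANK (Tnfrsf11a) on osteoclast precursors. Osteoprotegerin (OPG, Tnfrsf11b) is a secreted decoy receptor that captures RANKL, so the balance of both sets how much ligand reaches RANK. RANK signalling induces Nfatc1, the transcription factor that drives the osteoclast gene programme, while CSF1 (Csf1) acting on its receptor (Csf1r) keeps precursors and macrophages alive and raises their RANK. In the joint these signals act at the growth plate front, in subchondral bone and in the marrow.

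Values are MAS5 signals, the Affymetrix summary of a probe set on a linear scale, and each group difference is a log2 fold change (double-null over wildtype) of signal + 32, a constant that makes the change of dim probe sets look smaller. They were fitted with limma over all 22626 probe sets with the table as a term, and p-values were adjusted over all of them. Signal over background was judged against the highest of 27 Bacillus control probe sets on the same array, which have no target in mouse RNA. That control level was between 27.5 and 63.5, and 63.4% of all probe sets lay above it on all 5 arrays. The lowest and highest signals on any array were 0.0423 and 26173. On the least reduced of the 3 Bgn probe sets (1416405_at) signals were 2003 and 3413 in wildtype and 204 to 224 in double-null pools, and on the Epyc probe set (1421114_a_at) they were 78.8 and 91.2 against 1.29 to 10.8. Markers of joint tissue were present: 9 of 9 osteoblast and osteocyte markers, 8 of 9 chondrocyte markers and 9 of 11 osteoclast markers on the array lay above the control level on all 5 arrays.

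None of the 15 probe sets passed an adjusted p of 0.05, where 6 of 22626 probe sets (0.0265%) did. The Bgn probe sets were among those 6 (limma adjusted p from 0.00062 to 0.0047). The dimmer Epyc probe set, of a gene these animals also lack, did not pass, at a log2 fold change of -1.64 (limma adjusted p = 0.16). Failing to pass thus does not show that a probe set of such signal was unchanged. The adjusted p of the members was between 0.90 and 0.99 (limma, Benjamini-Hochberg). The Csf1 probe set 1448914_a_at alone had an unadjusted p below 0.05, 1 of 15 against 5.35% of all probe sets. In signal, 11 of the 15 lay above the control level on all 5 arrays, the Csf1 probe set 1425155_x_at did so on 4 arrays, and 1 probe set each of Tnfsf11, Tnfrsf11b and Tnfrsf11a did so on no array. Every one of the 6 genes thus had at least 1 probe set above the control level throughout.

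**Figure D1:**
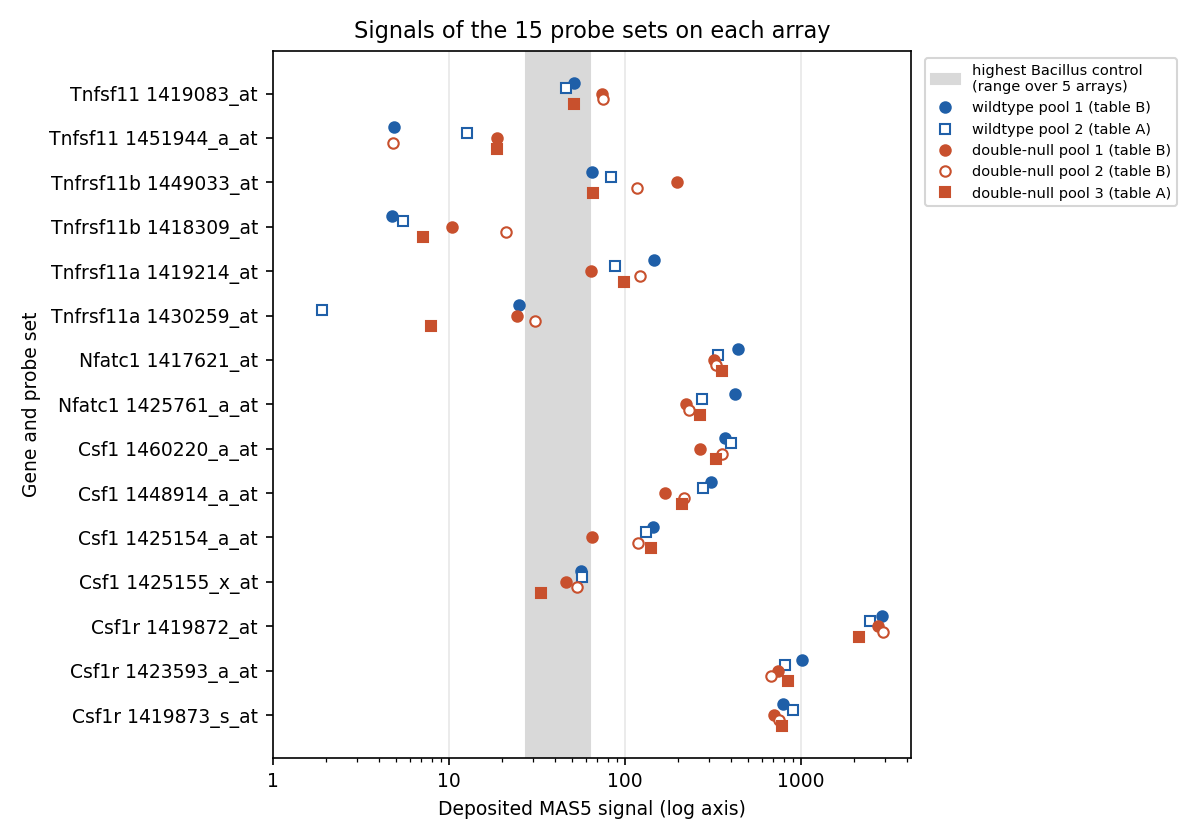
Deposited MAS5 signal (log axis) of each of the 15 probe sets on each of the 5 arrays, blue for wildtype and red for double-null pools, squares for table A and circles for table B, with open symbols for pools numbered 2. The grey band spans the highest Bacillus control of each array, 27.5 to 63.5; the Csf1r probe sets lie far to its right, and 3 dim probe sets of Tnfsf11, Tnfrsf11b and Tnfrsf11a lie to its left or at its edge.

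The RANKL transcript was faint in whole joints. On its brighter probe set (Tnfsf11, 1419083_at) the signal was 51.2 and 46.4 in wildtype pools 1 and 2 and 73.9, 74.9 and 51.7 in double-null pools 1 to 3. All double-null signals were above both wildtype signals, though double-null pool 3 was above wildtype pool 1 by less than the wildtype SD of 3.39, and the groups overlapped after normalisation. The means were 48.8 ± 3.39 (SD, n = 2) and 66.8 ± 13.1 (n = 3). This log2 fold change of 0.28 ± 0.22 (SE), with a 95% interval from -0.24 to 0.80, did not pass (limma adjusted p = 0.95).

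All 5 of these RANKL signals were above the highest control on their own array, but against the highest control on any array, 63.5, only those of double-null pools 1 and 2 were. That value came from double-null pool 2, where the second highest control read 19.4. Against the second highest control of each array, all 5 signals were above. The difference in table B was 0.45, and in table A it was 0.05. The second Tnfsf11 probe set (1451944_a_at), which can read alternative transcripts, was at or below the control level everywhere, at 4.87 and 12.6 in wildtype and 18.8, 4.81 and 18.9 in double-null pools, so no level of it can be given. T cell markers, from a cell type that can also make RANKL, were near background: of 7 on the array, 1 lay above the control level on all 5 arrays and Cd3e and Cd4 on none, and their summed signal was 252 to 258 in wildtype and 199.8 to 299.8 in double-null pools. Their part in the RANKL values was not tested.

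Among the 11 probe sets above the control level on all arrays, that of OPG varied most, with a ratio of 3.01 between its highest and lowest signal. On its brighter probe set (Tnfrsf11b, 1449033_at) the signal was 65.5 and 83.9 in wildtype pools 1 and 2, and 197, 117 and 65.9 in double-null pools 1 to 3. Double-null pools 1 and 2 were the highest, and double-null pool 3 lay between the wildtype pools, so the groups overlapped. The means were 74.7 ± 13.0 (SD, n = 2) and 127 ± 66.1 (n = 3), and the SD in the double-null pools exceeded the difference between the means. The log2 fold change was 0.46 ± 0.36 (SE), with a 95% interval from -0.41 to 1.32 (limma adjusted p = 0.95).

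The OPG difference had opposite signs in the tables. It was -0.26 in table A and 0.996 in table B, where double-null pools 1 and 2 were 1.33 and 0.66 above wildtype pool 1. Without wildtype pool 1, which leaves the contrast of table A, it was again -0.26. The second OPG probe set (1418309_at), built on the same source sequence, read 4.74 and 5.48 in wildtype and 10.4, 21.2 and 7.14 in double-null pools. These double-null signals were above both wildtype signals, but every one of the 5 was below the control level of its array.

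The balance between RANKL and OPG was described by how much the change of one exceeded that of the other, a difference of changes and not of levels. On the brighter probe sets the RANKL change less the OPG change was -0.17 on the log2 scale over all arrays, smaller than the pooled SD of 0.36 for the log2 ratio between pools of a group. It was 0.32 in table A and -0.54 in table B, so its direction was not the same in the tables. Without wildtype pool 1, which leaves the contrast of table A, it was again 0.32.

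**Figure D2:**
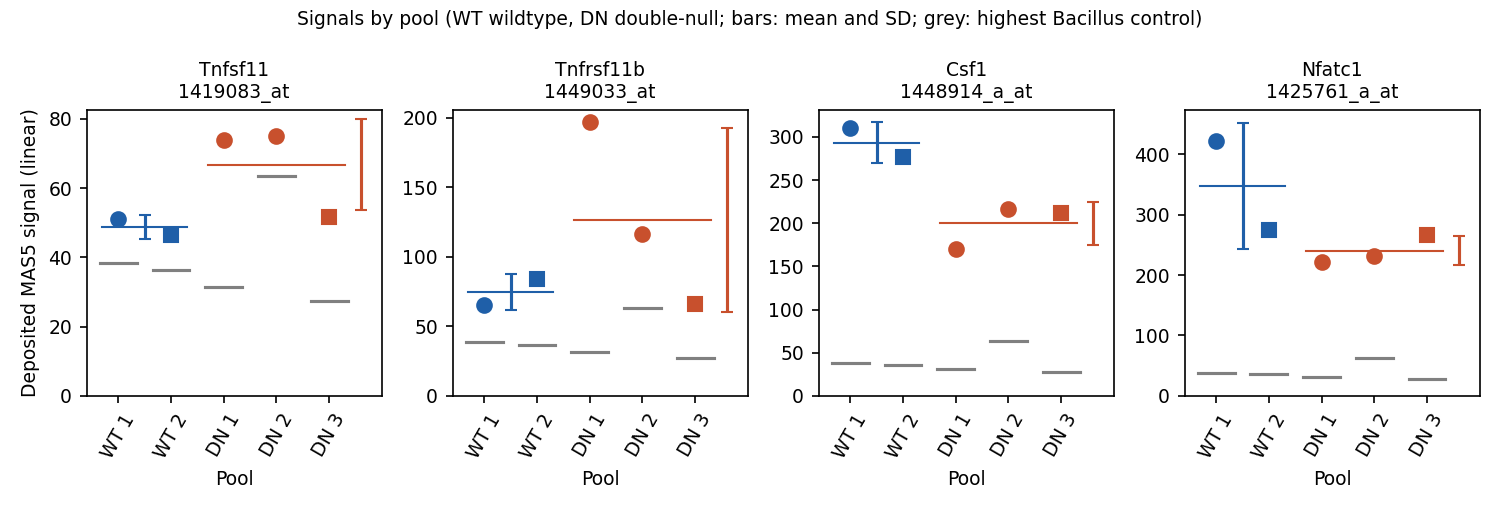
Deposited MAS5 signal (linear axis from 0) by pool for the brighter probe sets of Tnfsf11 and Tnfrsf11b, Csf1 1448914_a_at and Nfatc1 1425761_a_at, with group means (horizontal lines) and SD (error bars), squares for table A, circles for table B and grey dashes for the highest Bacillus control of each array. Tnfsf11 lies close above the grey dashes, Tnfrsf11b is highest in double-null pool 1 at 197, and the Csf1 and Nfatc1 panels have all double-null pools below both wildtype pools.

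RANK, the receptor, was measured at a low level with no difference beyond the spread. On Tnfrsf11a 1419214_at the signal was 146 and 88.2 in wildtype pools 1 and 2 and 64.3, 122 and 98.8 in double-null pools 1 to 3. Wildtype pool 1 was the highest and double-null pool 1 the lowest, and the groups overlapped. RANK had a log2 fold change of -0.22 ± 0.27 (SE), with a 95% interval from -0.86 to 0.42 (limma adjusted p = 0.99). It was 0.10 in table A and -0.45 in table B. The sign turned without wildtype pool 1, which leaves the contrast of table A. The other probe set, 1430259_at, ran from 1.92 in wildtype pool 2 to 31.1 in double-null pool 2 and was below the control level on every array.

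Nfatc1, the factor that RANK signalling induces and that many other joint cells also express, was well above background on both probe sets. On 1425761_a_at the signal was 422 and 274 in wildtype pools 1 and 2 and 222, 232 and 267 in double-null pools 1 to 3. All double-null pools were below both wildtype pools, with double-null pool 3 at 267 just below wildtype pool 2 at 274. The log2 fold change was -0.46 ± 0.21 (SE), with a 95% interval from -0.97 to 0.04, and did not pass (limma adjusted p = 0.92). It was -0.04 in table A and -0.78 in table B, and wildtype pool 1 was the array farthest from the rest. On the brighter probe set, 1417621_at, the signal was 440 and 339 in wildtype and 321, 330 and 359 in double-null pools, and the groups overlapped. The log2 fold change there was -0.19 ± 0.17 (SE), with 0.08 in table A and -0.39 in table B. Its sign turned without wildtype pool 1, which leaves the contrast of table A.

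The Nfatc1 values are set beside those of osteoclast markers. The summed signal of the 11 osteoclast markers on the array was 26699 and 16746 in wildtype pools 1 and 2, and 18011, 20631 and 18068 in the double-null pools. These are sums of deposited signals, which follow each array's scale and the brightest gene, here Car2 (carbonic anhydrase 2), at 46.5% to 54.5% of the sum. After normalisation the median deviation of the 8 tested markers from their means over the arrays was 0.33 and -0.11 (log2) in wildtype pools 1 and 2, and -0.09, 0.03 and -0.15 in double-null pools 1 to 3. Wildtype pool 1, the highest for both Nfatc1 probe sets, was the highest for 6 of these 8 markers. A high wildtype pool 1 was not particular to osteoclast markers. The same median there was 0.42 for chondrocyte, 0.20 for adipocyte, 0.17 for B cell and 0.17 for erythroid markers. It was -0.25 for fibroblast and stromal and -0.26 for skeletal muscle markers, and between 0.03 and 0.09 for the other marker lists with tested genes. Spi1, encoding the myeloid factor PU.1, read 901 and 573 in wildtype and 511, 422 and 549 in double-null pools, again highest in wildtype pool 1. The part of osteoclast content in the Nfatc1 values was not tested, and in RNA from whole joints fewer cells of a type and less RNA per cell cannot be told apart.

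Csf1, the survival cytokine of the macrophage and osteoclast lineage, had negative log2 fold changes on all 4 of its probe sets and passed on none. On 1448914_a_at the signal was 310 and 277 in wildtype pools 1 and 2 and 171, 217 and 212 in double-null pools 1 to 3. All double-null pools were below both wildtype pools, and the gap from 217 to 277 was wider than the SD of either group. The means were 293 ± 23.2 (SD, n = 2) and 199.8 ± 25.4 (n = 3). The log2 fold change was -0.47 ± 0.18 (SE), a ratio of 0.722 with a 95% interval from 0.537 to 0.970 before adjustment (limma unadjusted p = 0.035, adjusted p = 0.90). It was -0.35 in table A and -0.56 in table B, and over all alternatives it stayed between -0.56 and -0.35.

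The brightest Csf1 probe set, 1460220_a_at, which is built on the same source sequence, read 374 and 400.2 in wildtype and 269, 356 and 331 in double-null pools. Its groups were apart too, with a smaller gap from 356 to 374. The log2 fold change was -0.25 ± 0.17 (SE), with a 95% interval from -0.65 to 0.16 (limma adjusted p = 0.94), and it was -0.26 in table A and -0.24 in table B. Of the other 2, 1425154_a_at read 144 and 132 in wildtype and 65.4, 119.7 and 140.2 in double-null pools, and double-null pool 3 lay between the wildtype pools. Its log2 fold change of -0.23 ± 0.25 (SE) was 0.05 in table A and -0.44 in table B. The dimmest, 1425155_x_at, some of whose probes can match other sequences, read 56.3 and 56.9 against 46.2, 53.4 and 33.4. Double-null pool 2 was below the control level of its array, 63.5, but above the second highest control there, 19.4.

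Csf1r, the CSF1 receptor of monocytes, macrophages and osteoclast precursors, was well above background on all 3 of its probe sets and passed on none. On 1419872_at the signal was 2906 and 2491 in wildtype pools 1 and 2 and 2756, 2940 and 2137 in double-null pools 1 to 3. Double-null pools held both the highest and the lowest value. Its log2 fold change was -0.09 ± 0.14 (SE), a ratio of 0.942 with a 95% interval from 0.749 to 1.18 (limma adjusted p = 0.99), so larger differences in either direction lay outside the interval on this probe set.

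On 1423593_a_at the signal was 1023 and 817 in wildtype and 741, 679 and 848 in double-null pools, and double-null pool 3 lay between the wildtype pools. Its log2 fold change was -0.28 ± 0.17 (SE), with 0.06 in table A and -0.54 in table B. On 1419873_s_at, a design that may read more than 1 transcript, the signal was 797 and 902 against 704, 749 and 778, with all double-null pools below both wildtype pools. Its log2 fold change was -0.18 ± 0.13 (SE), with -0.19 in table A and -0.16 in table B. Monocyte and macrophage markers summed to 22077 and 15679 in wildtype pools 1 and 2 and to 17721, 20441 and 16367 in double-null pools 1 to 3, of which Lyz2 (lysozyme) alone made 50.0% to 63.2%. Single markers differed from that sum: Mrc1, the mannose receptor, read 632 and 536 against 1041, 749 and 722, and Cd14, a co-receptor for lipopolysaccharide, read 195 and 191 against 274, 422 and 214. Both are named after their values were seen, lay higher in every double-null pool, and did not pass the test (log2 fold changes 0.43 and 0.49, limma adjusted p = 0.77 and 0.79). Of the 14 tested markers of this list 7 had positive and 7 negative log2 fold changes. Among the negative ones were Fcgr3 at -0.27 and Cd68 at -0.25, also named after their values were seen. The part of macrophage content in the Csf1r values was not tested.

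**Figure D3:**
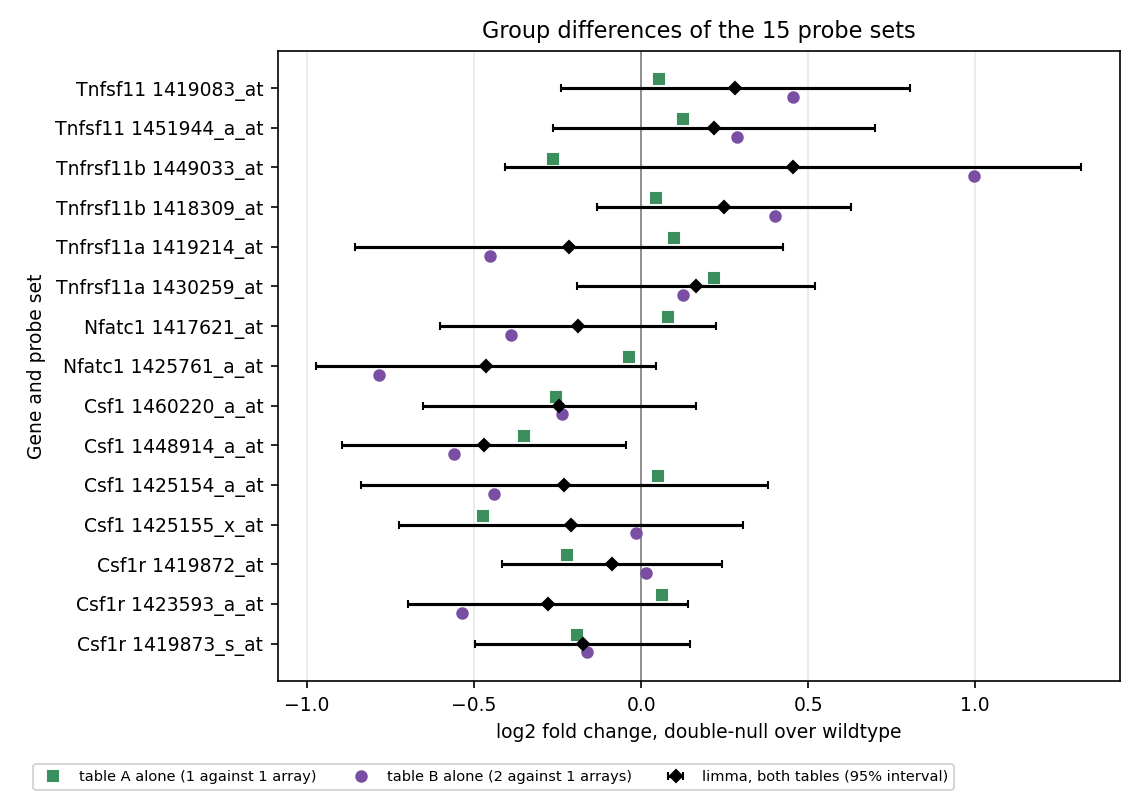
Log2 fold change, double-null over wildtype, for the 15 probe sets: diamonds with 95% intervals are limma fits over both tables, green squares table A alone (1 against 1 array) and purple circles table B alone (2 against 1). The interval of Csf1 1448914_a_at alone excludes 0 before adjustment, and 6 of the 15 probe sets have the square and the circle on opposite sides of 0.

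The 4 probe sets of RANKL and OPG had positive log2 fold changes and the 9 of Nfatc1, Csf1 and Csf1r negative ones, while the 2 of RANK had 1 of each sign. Among the 11 probe sets above the control level on all 5 arrays, 2 values were positive and 9 negative. The others include 1 probe set each of RANKL and OPG that lay above the control level on no array. Probe sets of 1 gene share their RNA and are not separate evidence. Every double-null signal was above both wildtype signals for 2 of 15 probe sets, against 7.86% of all probe sets, and below both for 5 of 15, against 11% of all. After normalisation the counts were 1 and 4, against 9.24% and 9.93%. The difference was negative in both tables for 5 probe sets and positive in both for 4, against 25.1% and 23% of all, and 3 of those 4 were at background on every array. The median log2 fold change was -0.19, with 0.04 in table A and -0.16 in table B, against -0.0039 over all probe sets. With 2 against 3 arrays an exact permutation test of 1 probe set could not go below p = 0.1.

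The brightest probe sets of Nfatc1, Csf1, Csf1r and Tnfrsf11a passed a filter at the 40th percentile of genes, a signal near 98.5, and those of Tnfsf11 and Tnfrsf11b did not. Likeness of pattern was measured as the root mean square distance over the 5 arrays between centred log2 values, among 7436 genes above that filter. The closest gene was Slc33a1 for Tnfrsf11b (0.136), Atad2b for Tnfsf11 (0.0279), Stac2 for Tnfrsf11a (0.0332), Pomt2 for Nfatc1 (0.0133), Cope for Csf1 (0.0155) and Bloc1s4 for Csf1r (0.0261). Next came Depdc1a and Sost for Tnfrsf11b, Ssx2ip and Trim2 for Tnfsf11, Chil4 and Lsp1 for Tnfrsf11a, Fbxo28 and Plekhg5 for Nfatc1, Slc17a9 for Csf1, and Nfyc and Zfyve21 for Csf1r. With 5 arrays many genes lay within 0.1: 113 of Tnfsf11, 47 of Tnfrsf11a, 405 of Nfatc1, 202 of Csf1 and 393 of Csf1r, but 0 of Tnfrsf11b. The distance is not scaled to a gene's own root mean square deviation. That deviation was 0.501 for Tnfrsf11b and 0.145 to 0.264 for the other members, so these counts are not comparable between members.

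Genes that carry these signals onward were read from 6 lists of 114 genes, of which 72 had a signal above the filter. With limma 0 of 72 passed, against 0.121% of 7436 genes, and 5 had an unadjusted p below 0.05, against 6.17% of all genes. Of these 4 were higher, against 3.52%, and 1 was lower, against 2.65%, so that the shares are near those of all genes and the genes are given as values only. The median log2 fold change of the 72 was -0.016, against -0.011 over all genes tested. The 5 genes were Fos, Ppp3cb, Rcan1 and Osmr, higher, and Spi1, lower, of which Fos, Rcan1 and Osmr are named here after their values were seen. Fos, the AP-1 subunit that acts with NFATc1, read 247 and 301 in wildtype and 585, 572 and 328 in double-null pools (log2 fold change 0.70, limma adjusted p = 0.55), at 0.12 in table A and 1.13 in table B.

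In the RANK signal transduction list 13 of 21 genes had positive values, with a median of 0.018. Its brightest members were at -0.12 for Nfkbia, the NF-kappa-B inhibitor, -0.09 for Jund, 0.22 for the TAK1 adaptor gene Tab2 and -0.10 for Mapk14, encoding the p38 kinase. In the calcium and calcineurin list 5 of 11 were positive, with a median of -0.05. The calcineurin subunit genes were at -0.28 for Ppp3r1, 0.46 for Ppp3cb and -0.05 for Ppp3ca, and Plcg2, the phospholipase that releases calcium stores, was at -0.06. Rcan1, a calcineurin inhibitor and NFAT target, read 182 and 228 in wildtype and 284, 258 and 284 in double-null pools (0.43).

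The list of ITAM co-stimulation, which holds receptors, adaptors, kinases and other genes that act beside RANK, gave 5 of 10 positive values and a median of -0.013, with the adaptor genes Tyrobp at -0.25 and Fcer1g at -0.39, the kinase gene Syk at 0.0026 and Blnk at 0.07. In the CSF1 receptor signalling list 9 of 11 were negative, with a median of -0.10 that was 0.09 in table A and -0.14 in table B. Its brightest members were Spi1 at -0.55, Grb2 at -0.37, Akt1 at -0.18 and Inpp5d at -0.14. Of genes that induce or regulate RANKL and OPG, 8 of 11 were positive, with a median of 0.11, and the brightest were Ctnnb1 at 0.10, Tgfb1 at -0.10, Mmp14 at 0.21 and Il6st at 0.14. Osmr, the oncostatin M receptor, read 157 and 181 in wildtype and 255, 268 and 209 in double-null pools (0.47). Repressors of osteoclast formation had 7 of 9 negative values and a median of -0.037, with Ceacam1 at -0.11, Irf8 at -0.13, Ifngr1 at -0.29 and Id3 at -0.32.

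**Figure D4:**
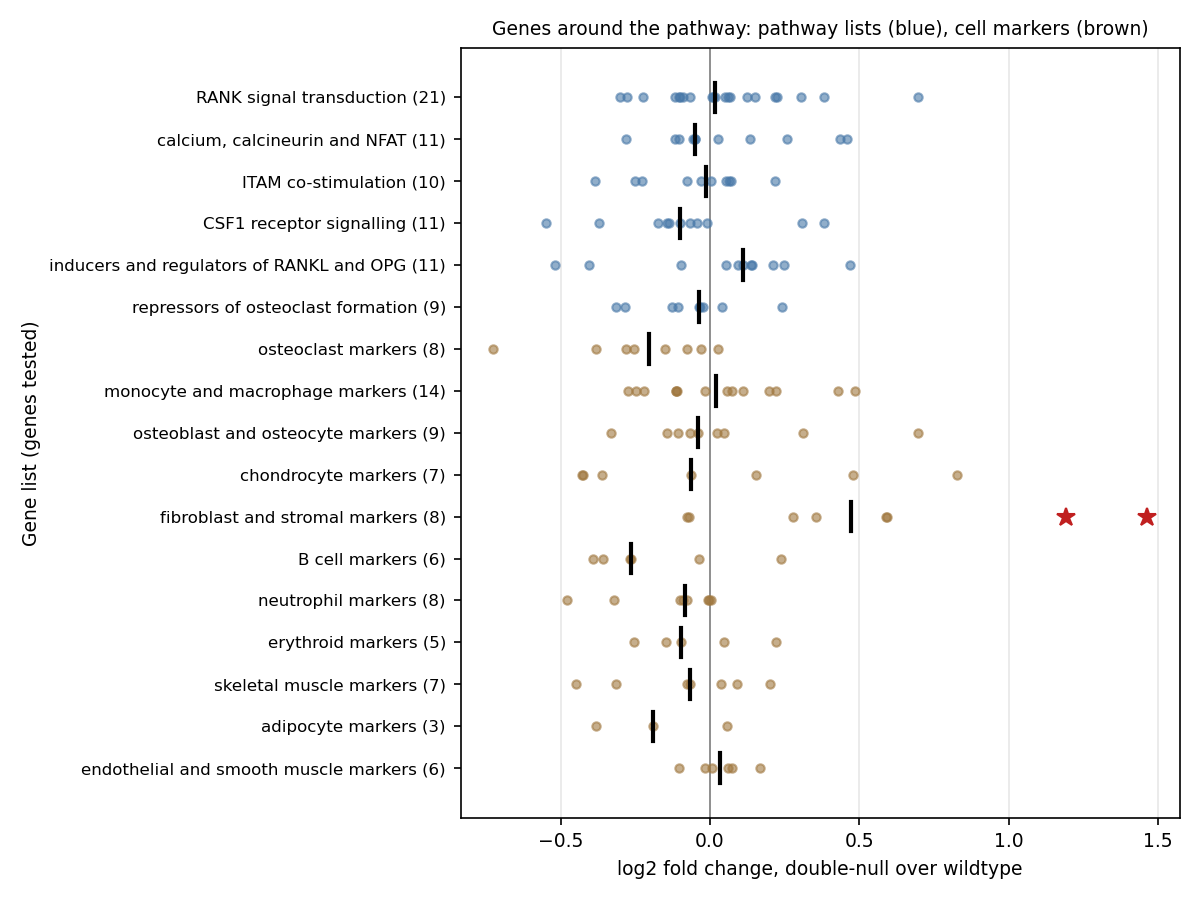
Log2 fold change, double-null over wildtype, of each gene above the filter in the 6 pathway lists (blue) and 11 marker lists (brown), with the number of genes tested in brackets, the list median as a black bar and red stars for genes with limma adjusted p below 0.05. The pathway medians lie between -0.10 and 0.11, and the 2 stars, Col3a1 and Lum, are in the fibroblast and stromal list.

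Among markers of the cells that make or answer these signals, 2 of 81 genes rose, against 0.0807% of 7436 genes, and 0 fell, against 0.0403%. Both were in the fibroblast and stromal list, Col3a1 (log2 fold change 1.46, limma adjusted p = 0.0026) and Lum (1.19, limma adjusted p = 0.040). At an unadjusted p below 0.05 there were 9 of 81 higher, against 3.52% of all genes, and 8 lower, against 2.65%. The lists were chosen with earlier results of these data known, so these shares cannot be read as a result about the lists. Without either of the wildtype pools, or without double-null pool 3, 0 passed. The fibroblast and stromal list had 6 of 8 positive values and a median of 0.47. Its summed signal was 16401 and 12446 in wildtype pools 1 and 2, against 21614 to 23697 in double-null pools. Col3a1 made 22.3% to 42.5% of it. Dcn and Cxcl12, also among its 4 brightest genes, were at 0.36 and -0.08. The negative values were those of Cxcl12 and Lepr (-0.07). Stromal cells are a source of Csf1 and OPG, and the part of the stromal marker differences in the Csf1 and OPG values was not tested.

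Osteoblast and osteocyte markers, a source of RANKL and OPG, had 4 of 9 positive values and a median of -0.039, with Col1a1 at -0.04, Ibsp at 0.02, Alpl at -0.11 and Dmp1 at -0.07. Their summed signal, 24222 and 15697 in wildtype pools 1 and 2 and 16603 to 21786 in double-null pools, overlapped, but Col1a1 made 67.5% to 78.1% of it. Pdpn, an early osteocyte marker named here after its values were seen, read 158 and 191 in wildtype and 336, 301 and 257 in double-null pools (log2 fold change 0.70, limma adjusted p = 0.32). Mepe, of the same list and also named after its values were seen, went the other way, at -0.33 (limma adjusted p = 0.86). Chondrocyte markers had a median of -0.065 that was 0.34 in table A and -0.40 in table B, with Comp at 0.83, Col2a1 at -0.36, Col9a1 at -0.42 and Acan at 0.16. Osteoclast markers had 7 of 8 negative values and a median of -0.20, at -0.09 in table A and -0.37 in table B, with Acp5 at -0.73, Mmp9 at -0.28, Ctsk at -0.15 and Car2 at 0.03. Monocyte and macrophage markers had 7 of 14 positive values and a median of 0.02, with Lyz2 at -0.11, Mpeg1 at 0.06, C1qa at -0.11 and C1qc at -0.02. The list medians of the other cell types of the joint were -0.27 for B cells, -0.19 for adipocytes, -0.098 for erythroid cells, -0.083 for neutrophils, -0.068 for skeletal muscle and 0.034 for endothelial and smooth muscle cells. Skeletal muscle markers differed between the tables. Their median deviation was 0.55 in wildtype pool 2 and 0.71 in double-null pool 3, both of table A. In table B it was -0.26 in wildtype pool 1 and -0.08 and -0.67 in double-null pools 1 and 2. The part of muscle content in the differences between tables was not tested.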

How the data were processed

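RNA was extracted with Trizol and silica columns and labelled with biotin by in-vitro transcription, per the labels' protocols. The deposited intensity values, 1 per probe set and linear, were made by the authors with MAS5, as named in the submitters' processing notes. The sources used here give neither its version nor its scaling target. The trimmed mean, without 2% at either end, was close to 250.1 on each array. Detection calls were not used here. Of 22690 probe sets, 20380 had 1 symbol, and 20351 symbols were updated by Entrez number to the GRCm38.p6 gene table.

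Both tables were joined, transformed as log2(signal + 32), quantile normalised over the 5 arrays and fitted in R 4.3.3 by limma 3.58.1 (lmFit; eBayes with the trend on; two-sided; degrees of freedom 2 residual and 4.57 prior), with genotype and table as terms and Benjamini-Hochberg adjustment. Members were fitted among all 22626 probe sets other than controls, without a filter. List genes were fitted among 7436 genes, each by its brightest probe set. On simulated data for the probe sets, 71.6% of changes of 1 and 100% of changes of 2 on the log2 scale were recovered, with 13.7 false calls per draw. Noise was normal and the fitted variances were taken as true. These rates therefore check the code and do not tell how often a change on the real arrays would pass.

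Members, lists and tests were chosen with earlier results of these data known. The rule for named genes took every member, the 4 brightest genes above the filter per list, genes past the threshold and the 3 closest to each member in pattern. Marker lists without a named gene were described by counts or by the plot of list changes, and 1 of the closest genes, without an approved symbol, was left out. Precision is limited by the number of arrays. Alternatives were other scalings, pseudocounts, filters and covariates, a replicate block, the mean over probe sets, other control levels and leaving out each array.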

Additional observations from a re-analysis of the deposited data

How the results depend on the processing

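In all 16 alternatives 0 of the 15 probe sets passed the threshold, with a smallest adjusted p of 0.60 (limma). Probe sets below a filter have no value under it. Of 218 alternative log2 fold changes 209 kept their sign. Without single pools 6 probe sets changed sign, running from -0.26 to 0.996 for Tnfrsf11b 1449033_at, -0.45 to 0.10 for Tnfrsf11a 1419214_at, -0.39 to 0.080 for Nfatc1 1417621_at, -0.44 to 0.052 for Csf1 1425154_a_at, -0.54 to 0.063 for Csf1r 1423593_a_at and -0.22 to 0.015 for Csf1r 1419872_at. For the first 5 the sign turned without wildtype pool 1, which leaves the contrast of table A. For the last it turned without either array of table A, which leaves the contrast of table B alone (0.015). That sign also turned with the replicate block in place of the table (0.079), and the cause was not tested. The replicate block called 0 members. For pools of the 2 genotypes with the same number, deviations from the group means correlated at 0.007 for pools 1 and -0.11 for pools 2, across probe sets. The correlation was 0.11 for wildtype pool 1 with double-null pool 2 and for wildtype pool 2 with double-null pool 3. The deviations of 2 wildtype pools mirror each other, so these correlations cannot exclude a pairing. The RANKL change less the OPG change was -0.54 in table B alone and between -0.54 and 0.32 without single pools. The ends of that range are the contrasts of table B and of table A. The count of marker genes that rose was 2; it was 1 with the deposited scaling, median centring, no table term, no intensity trend or the mean over probe sets, 0 with no filter, table B alone or the replicate block, and between 0 and 3 without single pools. Counts of members above the controls on all arrays were 10 to 12 under other control levels, against 11. Over all 22626 probe sets the fit called 6; it called 19 of 9050 with the filter at the 60th percentile and 18 of 13575 at the 40th, where fewer were tested, 3 with the replicate block, and 0 with table B alone, without either wildtype pool or without double-null pool 3.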
